A study of Mus musculus with 24 samples.

Results

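Liver RNA of mice injected with extracellular vesicles (EVs, membrane particles that cells release) labelled MCF10A/miR-122 was compared with liver RNA of mice injected with phosphate-buffered saline (PBS). The comparison takes 12 of the 24 libraries of the study, the 6 with each of these treatment labels. All mice were female NSG mice given as 8 weeks old. NSG is an immunodeficient strain that lacks mature T, B and NK cells, so responses that need lymphocytes cannot be seen in it. Over 5 weeks each mouse received 2 tail-vein injections per week, of PBS or of about 10 µg of EVs, and 2 days passed between the last injection and removal of the liver. The other 12 libraries came from NSG mice treated in the same way with EVs labelled MCF10A EV or MDA-MB-231 EV, 6 each.

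MCF10A is a non-tumorigenic human breast epithelial cell line and MDA-MB-231 a human breast cancer cell line. The label MCF10A/miR-122 joins the first with miR-122, a microRNA, and how the microRNA was supplied is not given in the sources used here. The library names contradict this label. By name, the 6 libraries with this label are exosome samples of the cancer line, and the 6 labelled MDA-MB-231 EV are the miR-122 samples. The 6 libraries labelled MCF10A/miR-122 EV are called the treated group here. Which EVs they received is uncertain, while the PBS group is not affected. Whether EV preparations or mice were pooled, and at which hour livers were taken, is not given in the sources used here. The labels do not say that each library is a separate mouse, so p-values measure the spread between libraries, which may be technical.

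The liver makes the acute phase proteins of blood plasma. Interleukin 1 and interleukin 6 raise their genes in hepatocytes through NF-kappaB, STAT3 and the C/EBP transcription factors, and serum amyloid A rises most in the mouse. The liver also releases glucose between meals, under glucagon and glucocorticoids, which raise genes of gluconeogenesis and amino acid breakdown, and it follows a daily clock in which BMAL1 (Arntl) with CLOCK or NPAS2 drives the Per and Cry repressor genes. miR-122 is the most abundant microRNA of hepatocytes, where it lowers the RNAs that it pairs with.

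Total counts were 23.02 to 29.2 M with PBS and 26.8 to 33.7 M in the treated group. By the running numbers in their names, PBS and MCF10A EV make up the first 12 libraries, and the treated and labelled MDA-MB-231 EV groups the last 12. The last 12 libraries all lay below the first 12 for 103 of 13773 genes tested (0.748%) and all above them for 25 (0.182%), and all 128 of these genes were called between the treated group and PBS. Of the 99 lower ones matched to a transcript annotation, 52 (52.5%) share at least 10% of their 32-base stretches with another gene, against 1921 of 13588 tested genes matched (14.1%). Such genes are called multi-copy here, and the division of their reads is uncertain. Treatment and library set cannot be told apart in the comparison with PBS. The labelled MDA-MB-231 EV group lies in the same set as the treated group, so for some genes its values are given beside those of PBS. For genes printed without them, whether that group also differed from PBS is not shown. The 2 comparisons share the 6 treated libraries.

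In all, 2463 of 13773 genes (17.9%) differed between the treated group and PBS at an adjusted p under 0.05 in edgeR's quasi-likelihood test. Of these, 1150 were higher (8.35%) and 1313 lower (9.53%). Most changes were small. At least a 2-fold change was seen for 147 higher and 195 lower genes, and the median log2 fold change was 0.46 among the higher and -0.51 among the lower ones. All 6 treated libraries lay above all 6 PBS libraries for 331 genes (2.4%) and below them for 479 (3.48%). Between the treated and the labelled MDA-MB-231 EV group 35 genes passed (0.254%), 29 higher (0.211%) and 6 lower (0.0436%) in the treated group, and 1128 had an unadjusted p under 0.05. This count moved with single libraries, to 13, 83, 54 and 21 genes without treated replicate 3, 4, 5 and 6 and to 17, 18 and 19 without replicate 2, 3 and 5 of the labelled MDA-MB-231 EV group.

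**Figure D1:**
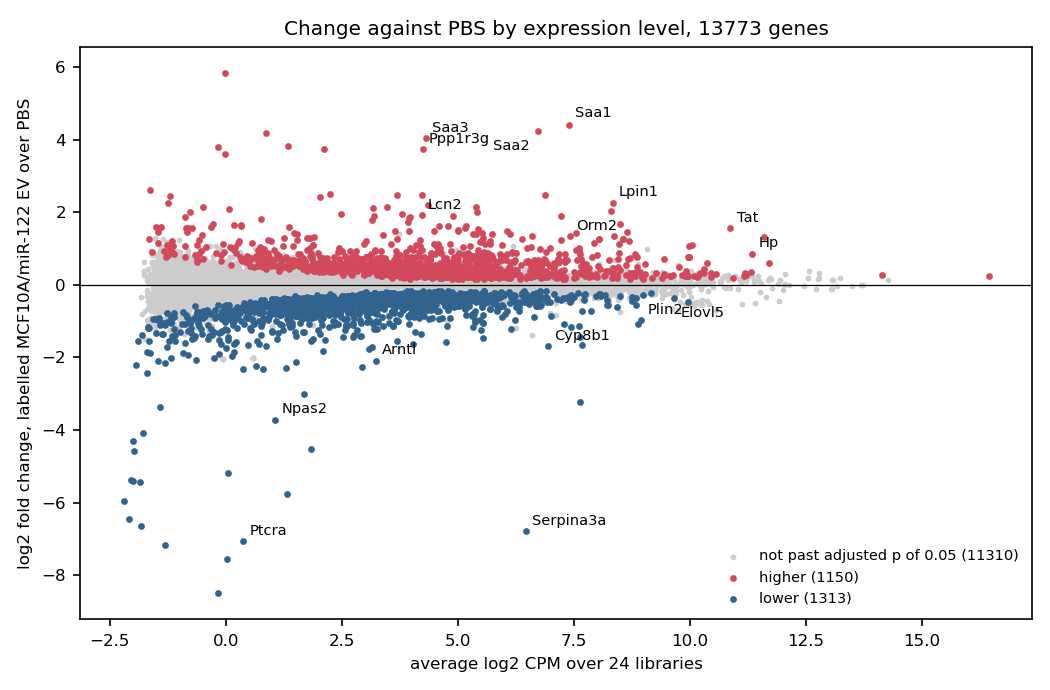
Log2 fold change of the treated group over PBS against the average level (log2 CPM over 24 libraries) for the 13773 genes tested, with the 1150 higher genes in red, the 1313 lower ones in blue and the rest in grey. Saa1 and Saa2 are among the 4 genes highest in log2 fold change and Serpina3a is among the 5 lowest.

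Serum amyloid A genes showed the largest rises among acute phase genes. Levels are in CPM (read counts relative to the library's total, with totals scaled by TMM, the trimmed mean of M-values) and are given as the lowest, the median and the highest of the 6 libraries of a group. Saa1, which encodes an apolipoprotein that joins high-density lipoprotein during inflammation, was at 16.2, 24.1 and 49.9 CPM with PBS and 339, 551 and 824 CPM in the treated group (log2 fold change 4.39, SE 0.32, adjusted p = 6.86e-10). Saa2, its close relative, was at 8.88, 15.2 and 44.8 CPM with PBS and 189.7, 331 and 561 CPM in the treated group (log2 fold change 4.25, SE 0.42, adjusted p = 2.17e-07). Saa3, made mainly outside hepatocytes in mice, was at 3.42, 3.88 and 5.74 CPM with PBS and 25.7, 60.99 and 112 CPM in the treated group (log2 fold change 4.04, SE 0.27, adjusted p = 1.33e-10). The lowest treated library exceeded the highest of all 18 other libraries for each of these genes. The labelled MDA-MB-231 EV group had 23.2, 33.03 and 80.6 CPM of Saa1 and 2.798, 4.13 and 5.22 CPM of Saa3, and the MCF10A EV group 2.79, 3.78 and 4.82 CPM of Saa3. Saa1 and Saa2 are multi-copy (45.7% and 43.4% of 32-base stretches shared), and their separate levels are uncertain. Saa4, the constitutively expressed member, was at 137, 159.7 and 174 CPM with PBS and 219.8, 240.1 and 290.2 CPM in the treated group (log2 fold change 0.61, SE 0.09, adjusted p = 5.06e-05), and at 194, 242 and 282 CPM in the labelled MDA-MB-231 EV group. Saa4 thus did not overlap PBS in either group, while Saa1, Saa2 and Saa3 overlapped PBS in the labelled MDA-MB-231 EV group.

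The start regions of these genes are shown because the C/EBP genes, described below, also rose in the treated group over PBS. Cebpb (log2 fold change 0.82) and Cebpd (0.77) rose over PBS in the labelled MDA-MB-231 EV group too. There Saa1 (0.52), Saa2 (0.32), Saa3 (-0.0014) and Lcn2 (0.42) did not pass. The part of C/EBP proteins in the rises was not tested. Each is the 250 bases before the annotated start site from RefSeq (GRCm38.p6), read 5′ to 3′ on the gene's strand, with matches to the C/EBP motif TTNNGCAA on either strand in capitals: Saa1 at chr7:46742981-46743230 (minus strand), Saa2 at chr7:46751583-46751832 (plus strand), Saa3 at chr7:46715677-46715926 (minus strand) and Lcn2 at chr2:32387740-32387989 (minus strand).
Saa1: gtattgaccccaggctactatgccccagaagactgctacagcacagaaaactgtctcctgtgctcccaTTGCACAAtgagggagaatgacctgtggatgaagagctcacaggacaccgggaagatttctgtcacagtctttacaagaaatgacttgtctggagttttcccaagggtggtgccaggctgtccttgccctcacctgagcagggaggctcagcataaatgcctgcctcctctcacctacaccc
Saa2: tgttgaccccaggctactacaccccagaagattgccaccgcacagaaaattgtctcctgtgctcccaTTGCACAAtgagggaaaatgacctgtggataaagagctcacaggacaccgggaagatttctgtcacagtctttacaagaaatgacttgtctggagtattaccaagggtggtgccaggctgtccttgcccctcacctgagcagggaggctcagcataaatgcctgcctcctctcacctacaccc
Saa3: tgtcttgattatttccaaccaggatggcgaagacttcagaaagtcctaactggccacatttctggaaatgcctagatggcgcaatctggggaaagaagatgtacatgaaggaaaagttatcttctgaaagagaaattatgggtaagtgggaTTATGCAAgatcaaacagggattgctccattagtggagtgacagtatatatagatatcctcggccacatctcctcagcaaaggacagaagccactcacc
Lcn2: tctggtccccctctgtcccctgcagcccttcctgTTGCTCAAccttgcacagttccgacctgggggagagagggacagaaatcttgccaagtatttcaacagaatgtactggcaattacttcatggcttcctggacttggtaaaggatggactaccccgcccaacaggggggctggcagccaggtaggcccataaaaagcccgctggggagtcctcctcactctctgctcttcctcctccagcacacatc
The motif was found 1 time in each window, starting 182 bases before the start site in Saa1, 183 in Saa2, 99 in Saa3 and 216 in Lcn2. It was found in 14 of the 21 acute phase genes with a window (66.7%), including Orm2, against 10.8% of all 27025 genes with a window. The STAT motif TTCNNNGAA, searched on either strand, was in 5 of the 21 (23.8%; 8.13% of all genes) and in none of these 4. The 14 genes with a C/EBP match include some that rose over PBS, such as Saa1, and some that did not pass, such as Fga. Whether a match went with a rise was not tested. A match describes letters and not a site in use.

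Of 30 acute phase genes tested, 11 rose (36.7%, against 8.35% of all genes), none fell and 19 did not pass. The median log2 fold change of the 30 was 0.18, against 0.00 over all genes. Of the same 30 genes, 4 rose in the labelled MDA-MB-231 EV group over the same PBS libraries. There 734 of all 13773 genes rose and 873 fell (1607 called in either direction, 11.7%). Lcn2, the gene of lipocalin 2, a protein that withholds iron from bacteria, was at 5.94, 8.26 and 12.1 CPM with PBS and 22.95, 29.1 and 50.7 CPM in the treated group (log2 fold change 1.92, SE 0.23, adjusted p = 3.64e-06). Hp, which encodes haptoglobin, the scavenger of free hemoglobin, was at 1576, 1832 and 2012 CPM with PBS and 2680.4, 3292 and 3773 CPM in the treated group (log2 fold change 0.86, SE 0.10, adjusted p = 4.18e-06). The treated libraries did not overlap PBS for either gene. The MCF10A EV libraries, at 14.5, 21.8 and 24.7 CPM of Lcn2, also lay above PBS and overlapped the lower treated libraries for both genes. Orm2, which encodes a drug-binding acid glycoprotein, was at 74.3, 105 and 150.3 CPM with PBS and 165, 286 and 374 CPM in the treated group (log2 fold change 1.34, SE 0.20, adjusted p = 4.95e-05). Its relative Orm1 was at 399.6, 517 and 686 CPM with PBS and 657, 829.6 and 1102 CPM in the treated group (log2 fold change 0.71, SE 0.13, adjusted p = 0.000798), and both are multi-copy. Hpx, the gene of the heme-binding protein hemopexin, was at 2436, 2615 and 3921 CPM with PBS and 3624, 4026 and 5297 CPM in the treated group (log2 fold change 0.61, SE 0.11, adjusted p = 0.000453). Treated and PBS libraries overlapped for Orm1 and Hpx but not for Orm2. The fibrinogen gene Fga (log2 fold change -0.13, adjusted p = 0.405) and the serum amyloid P gene Apcs (0.34, adjusted p = 0.0593) did not pass. Apcs passed without PBS replicate 3 (0.43) or treated replicate 1 (0.38), and in DESeq2 (adjusted p = 0.0392).

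**Figure D2:**
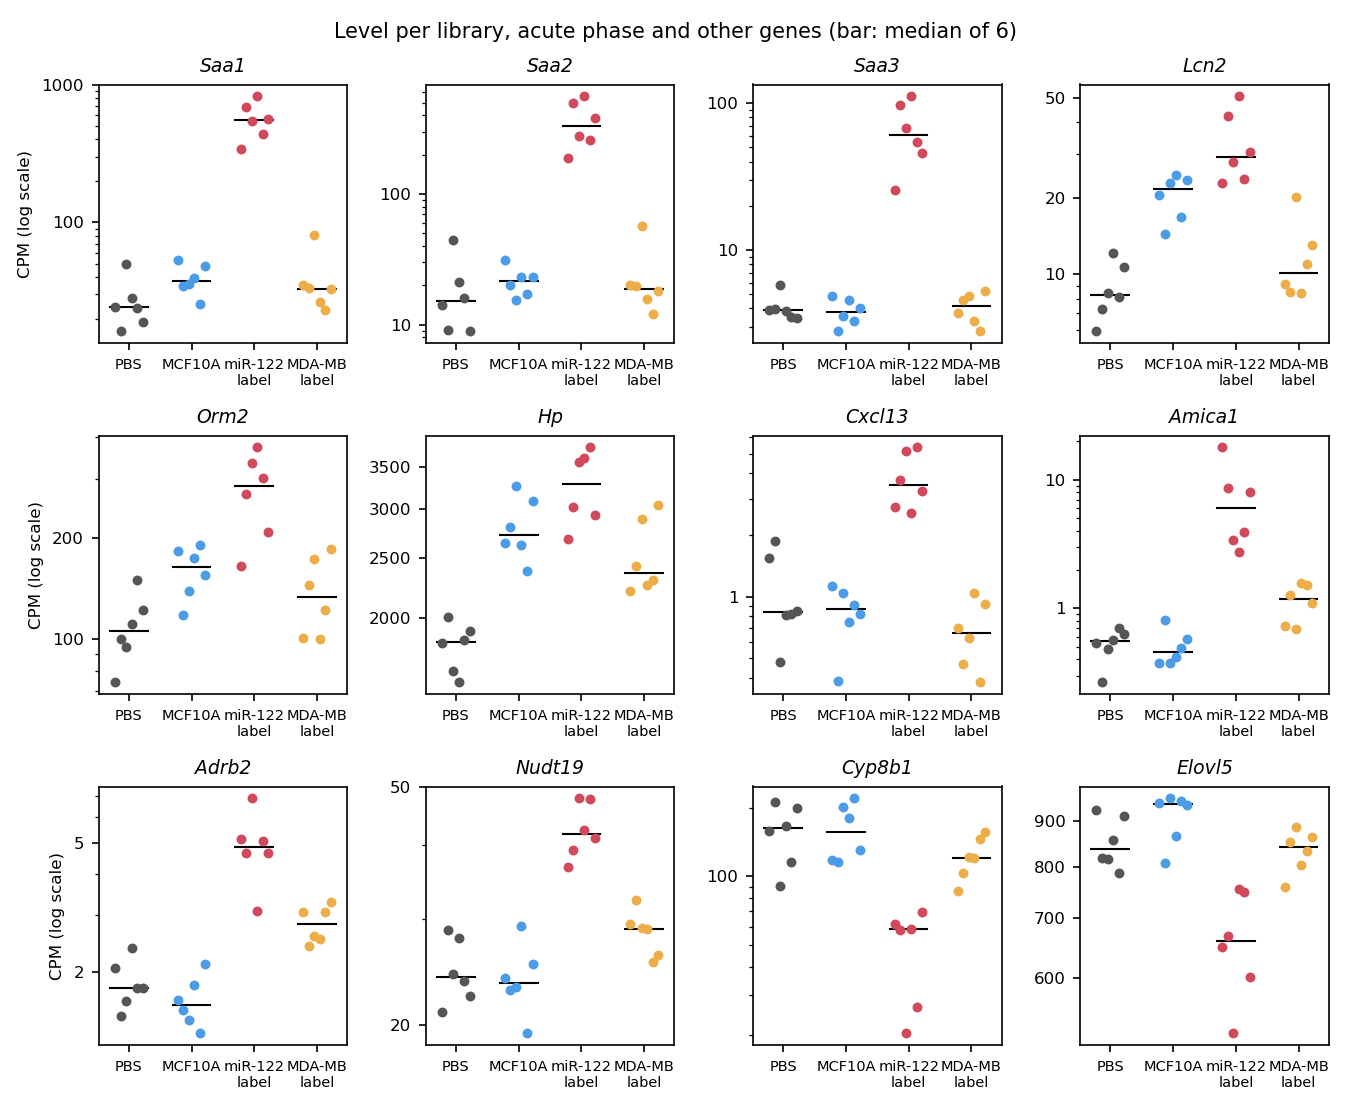
Level per library (CPM, log scale) of 12 genes in the 4 groups, with the median of each group as a bar. Points of the treated group (red) lie above all other libraries for Saa1, Saa2, Saa3, Cxcl13, Amica1 and Nudt19, and below them for Cyp8b1 and Elovl5.

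Of 23 genes of interleukin 6 and interleukin 1 signalling, 5 rose (21.7%, against 8.35% of all genes) and none fell (median 0.06). They were 2 receptor genes, 2 C/EBP genes and an NF-kappaB inhibitor gene. Il1r1, the interleukin 1 receptor gene, was at 18.3, 24.996 and 27.99 CPM with PBS and 50.9, 59.97 and 91.9 CPM in the treated group (log2 fold change 1.44, SE 0.17, adjusted p = 2.81e-06). Il6ra, the interleukin 6 receptor gene, was at 21.1, 22.1 and 26.8 CPM with PBS and 24.5, 47.8 and 69.8 CPM in the treated group (log2 fold change 1.05, SE 0.25, adjusted p = 0.00519). Il1r1 did not overlap between the groups and Il6ra did. Cebpb, which encodes C/EBP beta, was at 19.7, 36.9 and 61.1 CPM with PBS and 68.7, 100.3 and 153 CPM in the treated group (log2 fold change 1.48, SE 0.25, adjusted p = 0.000264). Cebpd, the gene of C/EBP delta, was at 2.23, 3.28 and 5.61 CPM with PBS and 5.41, 7.06 and 9.39 CPM in the treated group (log2 fold change 1.01, SE 0.18, adjusted p = 0.0004). Nfkbia, which encodes the inhibitor I-kappa-B alpha and is itself an NF-kappaB target, was at 25.97, 32.4 and 36.4 CPM with PBS and 39.999, 51.2 and 66.9 CPM in the treated group (log2 fold change 0.73, SE 0.14, adjusted p = 0.00075). Cebpb and Nfkbia did not overlap PBS, and the lowest treated library of Cebpd lay just under the highest PBS library. Over the labelled MDA-MB-231 EV group these 5 genes had log2 fold changes of 0.01 to 0.65, none past the threshold. That group itself was called higher than PBS for all 5, with log2 fold changes of 0.72 (Nfkbia) to 1.11 (Il1r1). The MCF10A EV libraries, at 29.9, 42.3 and 58.6 CPM of Il1r1, also lay above PBS and overlapped the treated group. For the other genes they overlapped PBS. Stat3, the transcription factor gene downstream of interleukin 6, did not pass over PBS (0.06, adjusted p = 0.696).

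Apart from serum amyloid A, few genes stood out both from PBS and from the labelled MDA-MB-231 EV group. Of the 29 genes higher than in the latter group, 24 were also higher than in PBS, and of the 6 lower ones 4 were also lower than in PBS. Cxcl13, which encodes a B cell attracting chemokine, was at 0.479, 0.841 and 1.86 CPM with PBS and 2.57, 3.51 and 5.37 CPM in the treated group (log2 fold change 1.82, SE 0.28, adjusted p = 9.91e-05), and at 0.382, 0.664 and 1.05 CPM in the labelled MDA-MB-231 EV group (log2 fold change 2.46, adjusted p = 4.05e-05). Amica1, the gene of the junctional adhesion molecule-like protein JAML, was at 0.266, 0.554 and 0.696 CPM with PBS and 2.74, 5.98 and 17.9 CPM in the treated group (log2 fold change 3.82, SE 0.40, adjusted p = 6.47e-07), and at 0.695, 1.18 and 1.59 CPM in the labelled MDA-MB-231 EV group (log2 fold change 2.69, adjusted p = 0.000241). Nudt19, which encodes a hydrolase of coenzyme A, was at 21.01, 24.01 and 28.8 CPM with PBS and 36.7, 41.7 and 47.8 CPM in the treated group (log2 fold change 0.78, SE 0.09, adjusted p = 3.64e-06), with 25.5, 28.9 and 32.3 CPM in the labelled MDA-MB-231 EV group (log2 fold change 0.57, adjusted p = 0.00364). For all 3 the treated libraries lay above the other 18 without overlap, and leaving out any 1 library ended none of their calls. Gbp1, an interferon-inducible GTPase gene, was at 0.851, 1.25 and 1.87 CPM with PBS and 1.64, 2.62 and 3.42 CPM in the treated group (log2 fold change 0.95, SE 0.20, adjusted p = 0.00221), overlapping PBS, with 0.827, 1.11 and 1.38 CPM in the labelled MDA-MB-231 EV group (log2 fold change 1.23, adjusted p = 0.00439). Lcn2 was also higher than in the labelled MDA-MB-231 EV group (log2 fold change 1.49, adjusted p = 0.00122). Gp49a, a multi-copy gene of the leukocyte immunoglobulin-like receptor family, was lower (-0.83, adjusted p = 0.0132), a call that ended in a fit of the 12 libraries compared (adjusted p = 0.0759).

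All 6 treated libraries lay above the other 18 for 16 genes (0.116%) and below them for 9 (0.0653%), and all 25 were called against PBS. Among the 16 were both subunits of the sterol export transporter of hepatocytes. Abcg5 was at 104, 120.2 and 144 CPM with PBS and 177, 186 and 261 CPM in the treated group (log2 fold change 0.71, SE 0.13, adjusted p = 0.000729) and Abcg8 at 66.3, 91.7 and 122.2 CPM with PBS and 153, 154 and 258 CPM in the treated group (log2 fold change 0.91, SE 0.18, adjusted p = 0.00123). Over the labelled MDA-MB-231 EV group neither passed, with log2 fold changes of 0.46 and 0.48. Atp1b1, the gene of the sodium pump's beta subunit, was at 37.8, 41.7 and 53.9 CPM with PBS and 62.1, 75.3 and 95.4 CPM in the treated group (log2 fold change 0.82, SE 0.10, adjusted p = 7.95e-06). Il18bp, which encodes a secreted inhibitor of interleukin 18, was at 5.12, 6.78 and 8.91 CPM with PBS and 9.82, 10.8 and 15.9 CPM in the treated group (log2 fold change 0.77, SE 0.14, adjusted p = 0.000426). Exons of Amica1, Nudt19, Atp1b1, Il18bp, Abcg5 and Abcg8 overlap a gene on the other strand, and the strand setting of the counts is not given in the sources used here. The 9 lower genes included Cyp8b1, the sterol 12-alpha-hydroxylase that sets the share of cholic acid in bile, at 90.9, 163 and 213 CPM with PBS and 20.3, 58.4 and 69.95 CPM in the treated group (log2 fold change -1.68, SE 0.27, adjusted p = 0.000124). Elovl5, a fatty acid elongase of the polyunsaturated pathway, was at 786, 837 and 927 CPM with PBS and 520.3, 659.6 and 755 CPM in the treated group (log2 fold change -0.37, SE 0.08, adjusted p = 0.00222). Fermt2, which encodes the integrin-binding protein kindlin 2, was at 88.9, 99.6 and 104 CPM with PBS and 71.1, 77.8 and 85.2 CPM in the treated group (log2 fold change -0.33, SE 0.07, adjusted p = 0.00119). Elovl5 missed the threshold over the labelled MDA-MB-231 EV group (log2 fold change -0.34, adjusted p = 0.0797). Cyp8b1 and Fermt2 passed in that comparison, with log2 fold changes of -1.31 and -0.33. The call of Cyp8b1 there ended without treated replicate 3 or without replicate 3, 5 or 6 of the labelled MDA-MB-231 EV group, and that of Fermt2 without any 1 of 8 libraries. In a fit of the 12 libraries compared neither passed (adjusted p = 0.0761 and 0.0945).

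Kupffer cells are the resident macrophages of liver sinusoids and take up particles from blood. Of 16 Kupffer cell and macrophage markers, 8 rose over PBS (50%, against 8.35% of all genes), none fell and 15 had a positive log2 fold change (median 0.43). None of the 16 passed between the labelled MDA-MB-231 EV group and PBS (median 0.03). Without treated replicate 3, 3 markers rose (median 0.28), without PBS replicate 4 or 6 5 each, and without treated replicate 4 13. Summed over the list, the markers were at 632, 686 and 724 CPM with PBS, at 642, 833 and 1235 CPM in the treated group and at 569, 689 and 771 CPM in the labelled MDA-MB-231 EV group. Vsig4, which encodes a complement receptor of Kupffer cells, was at 16.3, 18.2 and 20.5 CPM with PBS and 20.6, 26.4 and 42.1 CPM in the treated group (log2 fold change 0.62, SE 0.14, adjusted p = 0.00307). Marco, a scavenger receptor gene, was at 9.68, 13.2 and 19.7 CPM with PBS and 15.8, 22.8 and 50.8 CPM in the treated group (log2 fold change 0.97, SE 0.25, adjusted p = 0.00911). Vsig4 did not overlap PBS and Marco did, and the treated replicate 3 was the highest library for both genes. Emr1, a surface marker gene of mature macrophages, was at 7.88, 10.5 and 13.2 CPM with PBS and 6.33, 16.3 and 25.8 CPM in the treated group with overlap (log2 fold change 0.54, adjusted p = 0.116), and passed without treated replicate 4 (0.70) or 5 (0.67). In bulk liver, more cells of a type and more RNA per cell cannot be told apart, and the part of these markers in the acute phase and chemokine results was not tested. The adhesion gene Vcam1, expressed on sinusoidal endothelium and Kupffer cells, was at 8.37, 12.5 and 22.98 CPM with PBS and 14.2, 30.5 and 53.1 CPM in the treated group (log2 fold change 1.24, SE 0.27, adjusted p = 0.00281). Of 4 monocyte markers 2 fell (50%, against 9.53% of all genes) and none rose. They were the multi-copy gene Ly6c2 (log2 fold change -0.87, adjusted p = 0.00137) and the fractalkine receptor gene Cx3cr1 (-1.003, adjusted p = 0.0177). Both were also called lower over PBS in the labelled MDA-MB-231 EV group (-0.56 and -1.03), and neither passed between the EV groups.

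**Figure D3:**
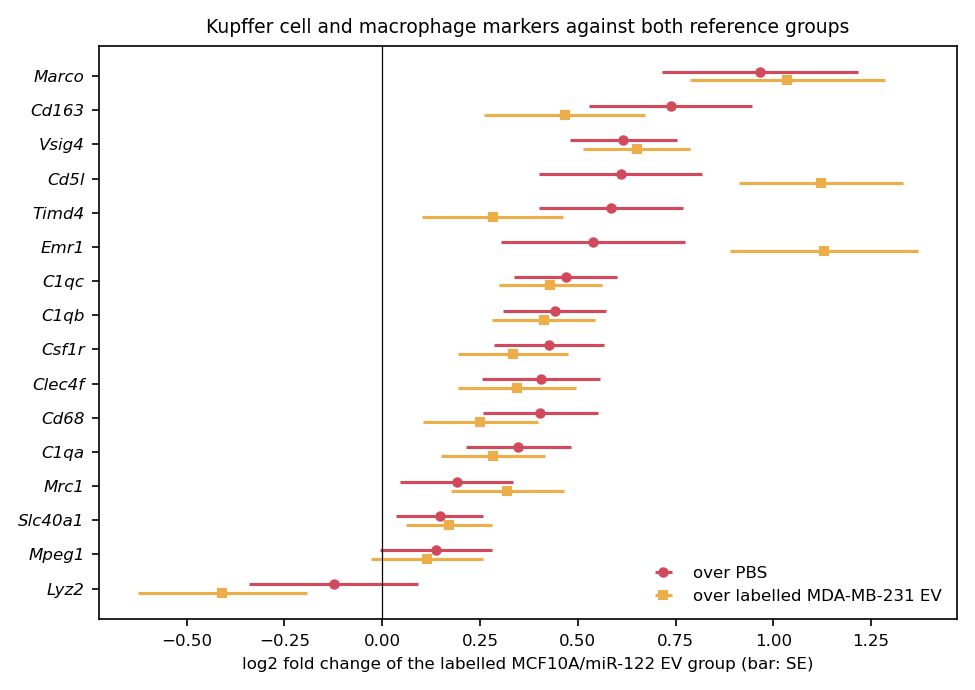
Log2 fold change with its SE of 16 Kupffer cell and macrophage markers in the treated group, over PBS (red circles) and over the labelled MDA-MB-231 EV group (orange squares). All but Lyz2 have positive values in both comparisons.

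Hepatocyte markers were abundant in all libraries, and 2 of 10 rose over PBS (20%, against 8.35% of all genes) while none fell. Of 12 sinusoidal endothelial markers and of 14 stellate cell and fibroblast markers 1 rose in each, and none of 7 cholangiocyte, 4 neutrophil or 6 erythroid markers passed. Of the lymphocyte markers in the count table, 2 of 10 for T cells, 2 of 6 for B and plasma cells and 1 of 8 for NK cells had enough counts to be tested, and the rest had at most 10, 3 and 8 counts in any library. Ptcra encodes the receptor alpha chain of T cell precursors. It was at 1.73, 1.999 and 2.42 CPM with PBS and 0, 0 and 0.0381 CPM in the treated group, where 2 libraries had 1 count each (adjusted p = 4e-11). It is among the genes that separate the library sets, with 0, 0 and 0.0338 CPM in the labelled MDA-MB-231 EV group and 2.09, 2.64 and 5.43 CPM with MCF10A EV. Cd79b, a B cell receptor subunit gene, was at 0.174, 0.419 and 0.565 CPM with PBS and 0.411, 0.651 and 0.9 CPM in the treated group (log2 fold change 0.78, SE 0.27, adjusted p = 0.0466), a call close to the threshold. It ended in DESeq2, with no filter, in a fit of the 12 libraries compared, and without any 1 of 9 of them. Klrk1, which encodes the NK cell receptor NKG2D, did not pass over PBS, at 0.557, 0.851 and 1.33 CPM with PBS and 0.856, 1.33 and 1.43 CPM in the treated group (log2 fold change 0.48, adjusted p = 0.0987), except without PBS replicate 3 (0.62). It passed over the labelled MDA-MB-231 EV group, at 0.364, 0.589 and 0.766 CPM (log2 fold change 1.07, adjusted p = 0.0181), and this call ended without any 1 of 5 libraries.

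Many genes that glucocorticoids and fasting raise in liver rose. Of 20 glucocorticoid response genes 10 rose (50%) and none fell (median 0.62). Of 18 gluconeogenesis genes 8 rose (44.4%) and 1 fell (median 0.53), where 8.35% of all genes rose. In the labelled MDA-MB-231 EV group 4 and 6 genes of these lists rose over PBS, with medians of 0.19 and 0.34, where 734 of all 13773 genes rose. Tsc22d3, the leucine zipper gene GILZ and a direct glucocorticoid target, was at 30.1, 56.3 and 98.3 CPM with PBS and 186, 215 and 266 CPM in the treated group (log2 fold change 1.90, SE 0.21, adjusted p = 1.44e-06). Tat, which encodes the first enzyme of tyrosine breakdown, was at 497, 949 and 1672 CPM with PBS and 2043, 2893 and 3823 CPM in the treated group (log2 fold change 1.56, SE 0.24, adjusted p = 8.45e-05). Klf15, a transcription factor gene of amino acid use in fasting, was at 85.3, 121.6 and 155 CPM with PBS and 216, 238 and 313 CPM in the treated group (log2 fold change 1.03, SE 0.13, adjusted p = 9.52e-06). The groups did not overlap for any of them. All were also called higher over PBS in the labelled MDA-MB-231 EV group, with log2 fold changes of 1.76 for Tsc22d3, 1.31 for Tat and 1.00 for Klf15. Pck1, the gene of cytosolic phosphoenolpyruvate carboxykinase, was at 785, 1631 and 2648 CPM with PBS and 3539, 3791 and 5646 CPM in the treated group (log2 fold change 1.31, SE 0.28, adjusted p = 0.00211), and the labelled MDA-MB-231 EV group at 3569, 3957 and 4449.6 CPM. Slc37a4, the transporter of glucose 6-phosphate into the endoplasmic reticulum, was at 85.2, 117 and 165 CPM with PBS and 153, 204 and 228 CPM in the treated group (log2 fold change 0.67, SE 0.12, adjusted p = 0.000296), with overlap. Ppargc1a, the coactivator gene PGC-1 alpha, was at 7.45, 7.803 and 12.2 CPM with PBS and 9.82, 27.7 and 35.5 CPM in the treated group (log2 fold change 1.48, SE 0.29, adjusted p = 0.00113). Its partner gene Foxo1 was at 25.5, 28.2 and 43.5 CPM with PBS and 27.4, 55.4 and 81.7 CPM in the treated group (log2 fold change 0.87, SE 0.22, adjusted p = 0.00677). Glucose 6-phosphatase itself, G6pc, was at 117, 311 and 576 CPM with PBS and 218, 680.4 and 1201 CPM in the treated group, and did not pass (log2 fold change 0.98, adjusted p = 0.0844), but passed without PBS replicate 5 (1.19) or 6 (1.18) or treated replicate 5 (1.16). The gene that fell, Creb3l3, encodes a membrane-bound transcription factor of fasting liver (log2 fold change -0.31, adjusted p = 0.0255).

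Genes of amino acid transport and breakdown moved in both directions. Of 17 amino acid transporters 5 rose (29.4%) and 1 fell (5.88%), with a median of 0.11, where 8.35% of all genes rose and 9.53% fell. Of 33 genes of the urea cycle and amino acid breakdown 5 rose (15.2%) and 3 fell (9.09%), shares nearer to those of all genes (median 0.14). Slc38a2, a sodium-coupled importer of neutral amino acids, was at 70.6, 98.9 and 172 CPM with PBS and 214, 272 and 435 CPM in the treated group (log2 fold change 1.43, SE 0.20, adjusted p = 4.19e-05), without overlap. Slc16a10, which carries aromatic amino acids, was at 71.4, 83.6 and 89.7 CPM with PBS and 99.4, 135 and 166 CPM in the treated group (log2 fold change 0.70, SE 0.11, adjusted p = 0.000149), also without overlap. Sds, the serine dehydratase gene, was at 98.4, 147 and 212 CPM with PBS and 225, 259 and 320.1 CPM in the treated group (log2 fold change 0.85, SE 0.18, adjusted p = 0.00177). Gpt2, which encodes the mitochondrial alanine transaminase, was at 181, 292 and 316 CPM with PBS and 329.8, 424 and 562 CPM in the treated group (log2 fold change 0.70, SE 0.15, adjusted p = 0.00176). The argininosuccinate lyase gene Asl was at 342, 394 and 492 CPM with PBS and 435, 567 and 670.0 CPM in the treated group (log2 fold change 0.50, SE 0.14, adjusted p = 0.0134). Sds and Gpt2 did not overlap between the groups, and Asl did. Bckdk, the kinase that holds back breakdown of branched-chain amino acids, fell without overlap, at 8.47, 9.31 and 10.1 CPM with PBS and 4.903, 6.16 and 7.58 CPM in the treated group (log2 fold change -0.60, SE 0.10, adjusted p = 0.000305). In the labelled MDA-MB-231 EV group the log2 fold changes over PBS were 1.01 for Slc38a2, 0.49 for Gpt2 and -0.51 for Bckdk, all past the threshold, and 0.30 for Sds, which did not pass. Without PBS replicate 1 or 3 or treated replicate 3, 3 of the transporters rose, and without PBS replicate 5, 1 gene of the urea cycle and amino acid list fell.

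Genes that control glycogen and glycolysis moved in both directions. Of 16 glycogen genes 5 rose (31.2%) and 1 fell (6.25%), with a median of 0.16. Of 18 genes of glycolysis and glucose uptake 3 rose (16.7%, median 0.17). Without 1 library, 2 glycogen genes rose (PBS replicate 1 or treated replicate 6) or 3 (PBS replicate 4 or 5), and 5 glycolysis genes (treated replicate 3). Ppp1r3g, which targets protein phosphatase 1 to glycogen and is raised by fasting, was at 0.863, 1.6996 and 8.62 CPM with PBS and 20.7, 27.4 and 128 CPM in the treated group (log2 fold change 3.73, SE 0.59, adjusted p = 0.000131). Ppp1r3c, another glycogen-targeting subunit, was at 24.2, 41.6 and 156 CPM with PBS and 11.9, 23.6 and 29.8 CPM in the treated group (log2 fold change -1.46, SE 0.36, adjusted p = 0.00679). The treated replicate 3 was far above the others for Ppp1r3g and PBS replicate 5 for Ppp1r3c. Without PBS replicate 5, Ppp1r3c had a log2 fold change of -0.91. Pfkfb3, an enzyme gene of fructose 2,6-bisphosphate that controls glycolysis, was at 3.597, 4.304 and 11.9 CPM with PBS and 14.7, 20.6 and 27.1 CPM in the treated group (log2 fold change 1.96, SE 0.25, adjusted p = 7.34e-06), without overlap. Slc2a2, the gene of the glucose transporter GLUT2, was at 145, 185 and 205 CPM with PBS and 189, 259.8 and 312 CPM in the treated group (log2 fold change 0.47, SE 0.11, adjusted p = 0.00461). The labelled MDA-MB-231 EV group also passed over PBS for Ppp1r3g (log2 fold change 2.83), Pfkfb3 (1.91) and Slc2a2 (0.46). It did not pass for Ppp1r3c (-0.89). Of 22 genes of insulin and growth hormone signalling 2 rose and 2 fell (9.09% each), near the 8.35% and 9.53% of all genes. The members named are single genes and not a result about the pathway. The signal transducer gene Stat5a, which is multi-copy and lower in all of the last 12 libraries, fell (log2 fold change -0.73, adjusted p = 0.000892), as did Igfals, which encodes the stabilizer of circulating IGF-1 (-0.41, adjusted p = 0.0204).

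Lipid genes did not move as a block. Of 21 lipogenesis genes 6 rose (28.6%) and 1 fell (4.76%), with a median of 0.26. Of 17 lipid droplet and lipase genes 2 rose (11.8%) and 3 fell (17.6%), with a median of -0.26. Of 32 fatty acid oxidation genes and PPAR alpha targets 2 rose (6.25%) and 4 fell (12.5%), near the 8.35% and 9.53% of all genes (median -0.21). Without PBS replicate 3, 5 lipid droplet genes fell. Of the oxidation genes 1 fell without PBS replicate 2 or 6 or treated replicate 6, and 2 fell without PBS replicate 4. Lpin1, which encodes the phosphatidate phosphatase and coactivator lipin 1, was at 48.1, 56.7 and 281 CPM with PBS and 225, 498 and 753 CPM in the treated group (log2 fold change 2.27, SE 0.41, adjusted p = 0.000539). Its relative Lpin2 was at 178, 219 and 261 CPM with PBS and 307, 472 and 733 CPM in the treated group (log2 fold change 1.12, SE 0.17, adjusted p = 7.15e-05). Thrsp, the thyroid hormone responsive gene Spot 14, was at 75.3, 119 and 254 CPM with PBS and 314, 558 and 798 CPM in the treated group (log2 fold change 2.04, SE 0.36, adjusted p = 0.000371). Lpin2 and Thrsp did not overlap between the groups, and for Lpin1 the highest PBS library, replicate 6, exceeded the lowest treated one. Lpin1 (log2 fold change 1.95), Lpin2 (1.04) and Thrsp (1.65) were also called higher over PBS in the labelled MDA-MB-231 EV group. Dgat2, of the last step of triglyceride synthesis, was at 420.4, 436 and 492 CPM with PBS and 523, 568 and 643 CPM in the treated group (log2 fold change 0.35, SE 0.07, adjusted p = 0.0019), while the fatty acid synthase gene Fasn did not pass (log2 fold change 0.57, adjusted p = 0.088). Fasn passed without treated replicate 3 (0.70).

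Plin2, the main coat protein gene of hepatocyte lipid droplets, fell, at 489.8, 627 and 734 CPM with PBS and 250.1, 302 and 396 CPM in the treated group (log2 fold change -0.96, SE 0.18, adjusted p = 0.000693), with no overlap between the groups. In the labelled MDA-MB-231 EV group Plin2 was at 370.2, 427 and 696 CPM, a difference from PBS that did not pass (log2 fold change -0.40), and that between the EV groups did not pass either (-0.56, adjusted p = 0.284). The coat gene Plin3 was at 29.1, 31.5 and 42.01 CPM with PBS and 20.9, 22.1 and 30.6 CPM in the treated group (log2 fold change -0.48, SE 0.10, adjusted p = 0.00273) and the hormone-sensitive lipase gene Lipe at 13.1, 16.6 and 20.2 CPM with PBS and 9.19, 10.9998 and 15.5 CPM in the treated group (log2 fold change -0.53, SE 0.12, adjusted p = 0.00395), both with overlap. Plin4, another coat gene, was at 4.29, 5.47 and 15.3 CPM with PBS and 4.86, 21.4 and 48.7 CPM in the treated group (log2 fold change 1.73, SE 0.46, adjusted p = 0.011). Angptl4, whose product inhibits lipoprotein lipase, was at 89.4, 103 and 155 CPM with PBS and 166, 197 and 294 CPM in the treated group (log2 fold change 0.94, SE 0.18, adjusted p = 0.00103). It also rose over PBS in the labelled MDA-MB-231 EV group (log2 fold change 1.08), and was at 152, 194 and 282 CPM with MCF10A EV. Cpt2, which encodes the inner carnitine palmitoyltransferase of mitochondria, fell without overlap, at 145, 174 and 187 CPM with PBS and 119.5, 128 and 137 CPM in the treated group (log2 fold change -0.42, SE 0.08, adjusted p = 0.00118). The outer enzyme gene Cpt1a (log2 fold change -0.37, adjusted p = 0.112) did not pass, though it did without PBS replicate 5 (-0.49). Of 22 genes of cholesterol synthesis and uptake 1 passed (4.55%). This gene, Insig2, which encodes a sterol sensor that retains SREBP, was at 220.3, 315 and 403 CPM with PBS and 187, 222 and 255 CPM in the treated group (log2 fold change -0.55, SE 0.13, adjusted p = 0.00436).

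Of 19 genes of bile acid synthesis and the bile acid receptor FXR, Cyp8b1 and Hsd3b7 fell and none rose. The share that fell (10.5%) was near the 9.53% of all genes, where 8.35% rose. Hsd3b7, a multi-copy gene of an early step of bile acid synthesis, fell by the same test (log2 fold change -0.44, adjusted p = 0.0032). Cyp7a1, the rate-limiting enzyme gene, was at 11.5, 61.9 and 104 CPM with PBS and 8.31, 49.8 and 92.3 CPM in the treated group, a wide spread in both groups (log2 fold change -0.21, adjusted p = 0.832). Of 35 targets and genes of the xenobiotic receptors CAR, PXR and AhR 10 rose (28.6%) and none fell (median 0.18). Alas1, which encodes the first enzyme of heme synthesis, was at 66.8, 139 and 615 CPM with PBS and 478, 563 and 636 CPM in the treated group (log2 fold change 1.45, SE 0.36, adjusted p = 0.00698). Por, the electron donor of microsomal cytochromes P450, was at 248, 391 and 455 CPM with PBS and 513, 612 and 776 CPM in the treated group (log2 fold change 0.78, SE 0.16, adjusted p = 0.00123). The groups did not overlap for Por, whereas for Alas1 PBS replicate 6 lay within the treated range and the other PBS libraries below it. Cyp1a2, an AhR target, was at 318, 441 and 584 CPM with PBS and 536, 647 and 705 CPM in the treated group (log2 fold change 0.58, SE 0.12, adjusted p = 0.00144). Nr1i2, the PXR gene, was at 70.6, 83.01 and 98.8 CPM with PBS and 106, 114 and 132 CPM in the treated group (log2 fold change 0.51, SE 0.11, adjusted p = 0.00203). Tiparp, an AhR feedback gene, was at 6.68, 7.297 and 9.29 CPM with PBS and 10.5, 12.2 and 13.3 CPM in the treated group (log2 fold change 0.67, SE 0.11, adjusted p = 0.000201). The multi-copy gene Cyp2a5 was at 448, 762 and 1699 CPM with PBS and 1466, 1992 and 2428 CPM in the treated group (log2 fold change 1.10, SE 0.26, adjusted p = 0.00462). The labelled MDA-MB-231 EV group also passed over PBS for Alas1 (log2 fold change 1.16), Cyp1a2 (0.42), Nr1i2 (0.40) and Tiparp (0.61). It did not pass for Por (0.36) and Cyp2a5 (0.16). Cyp2b10 and Cyp3a11, the classical CAR and PXR targets and both multi-copy, did not pass (log2 fold changes 0.28, adjusted p = 0.442 and 0.12, adjusted p = 0.515). Of 21 antioxidant genes of the NRF2 pathway the cystine transporter gene Slc7a11 (log2 fold change -1.02, adjusted p = 9.07e-07, lower in all of the last 12 libraries) and the sulfiredoxin gene Srxn1 (-0.52, adjusted p = 0.0114) fell and none rose. That share (9.52%) was near the 9.53% of all genes that fell.

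Clock genes moved in both directions. Of 14 core clock genes 5 rose (35.7%) and 2 fell (14.3%), where 8.35% of all genes rose and 9.53% fell. Of 10 clock output genes 5 rose (50%) and none fell (median 0.64). Arntl, the activator gene, was at 4.79, 6.19 and 29.6 CPM with PBS and 1.33, 2.92 and 3.71 CPM in the treated group (log2 fold change -2.09, SE 0.39, adjusted p = 0.000779). Npas2, the gene of an alternative partner of BMAL1, was at 0.399, 0.597 and 12.4 CPM with PBS and 0.09, 0.24 and 0.267 CPM in the treated group (log2 fold change -3.71, SE 0.83, adjusted p = 0.00317). PBS replicates 5 and 1 were the highest PBS libraries for both, and without PBS replicate 5 Npas2 had a log2 fold change of -2.09. Npas2 did not pass in limma-voom (adjusted p = 0.0634). Per1, a repressor gene that glucocorticoids also raise, was at 3.56, 9.95 and 39.8 CPM with PBS and 49.8, 68.96 and 94.8 CPM in the treated group (log2 fold change 2.15, SE 0.42, adjusted p = 0.000946). Per2 was at 11.9, 16.9 and 26.3 CPM with PBS and 22.7, 38.6 and 106 CPM in the treated group (log2 fold change 1.51, SE 0.29, adjusted p = 0.000892) and the repressor gene Ciart, listed as Gm129 and multi-copy, at 0.827, 4.38 and 10.1 CPM with PBS and 15.9, 22.1 and 51.2 CPM in the treated group (log2 fold change 2.46, SE 0.42, adjusted p = 0.000249). Usp2, a clock-driven deubiquitinase gene, was at 3.05, 7.696 and 17.7 CPM with PBS and 28.98, 41.7 and 66.7 CPM in the treated group (log2 fold change 2.47, SE 0.34, adjusted p = 2.45e-05). All treated libraries lay below PBS for both activator genes, above PBS for Per1, Ciart and Usp2, and for Per2 1 treated library overlapped. The output gene Dbp, whose RNA peaks in the day, was at 3.57, 76.98 and 118 CPM with PBS and 71.7, 104 and 149 CPM in the treated group (log2 fold change 0.64, adjusted p = 0.397), PBS replicate 5 being the lowest at 3.57 CPM. The labelled MDA-MB-231 EV group was at 2.23, 3.62 and 4.61 CPM of Arntl and 50.3, 58.96 and 68.5 CPM of Per1, above the highest PBS library for Per1 and below the lowest for Arntl. The part of the hour at which livers were taken was not tested.

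The start regions of Ciart (chr3:95882229-95882478, minus strand) and Per1 (chr11:69098699-69098948, plus strand, the first of its start sites) are shown because BMAL1 dimers bind the E-box CACGTG, which reads the same on both strands and is in capitals (RefSeq, GRCm38.p6, 250 bases before the start site).
Ciart: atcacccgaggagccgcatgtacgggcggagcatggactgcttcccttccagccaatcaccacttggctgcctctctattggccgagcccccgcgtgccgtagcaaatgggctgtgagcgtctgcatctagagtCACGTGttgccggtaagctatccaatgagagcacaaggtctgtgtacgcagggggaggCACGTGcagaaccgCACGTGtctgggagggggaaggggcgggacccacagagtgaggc
Per1: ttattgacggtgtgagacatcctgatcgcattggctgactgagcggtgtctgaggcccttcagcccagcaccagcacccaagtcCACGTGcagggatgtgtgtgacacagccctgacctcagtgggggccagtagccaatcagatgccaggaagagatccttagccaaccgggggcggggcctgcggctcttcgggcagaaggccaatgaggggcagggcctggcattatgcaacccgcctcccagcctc
Ciart held 3 matches, starting 116, 58 and 44 bases before the start site, and the Per1 window shown held 1, at 166 bases. The window of the other annotated start site of Per1 (chr11:69099902-69100151) held none. The E-box was in a window of 4 of 12 core clock genes (33.3%) and of 6.86% of all 27025 genes with a window, a gene being counted where any of its windows held a match. The motif TAGGTCA, bound by ROR and REV-ERB receptors, was in 0 of the 12, including Arntl and Npas2, and in 2.55% of all genes on either strand. Only this exact pattern was searched, and only in the 250 bases before annotated start sites. Elements past the start site, farther away or with other letters would be missed, so the search cannot show that a gene lacks one.

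**Figure D4:**
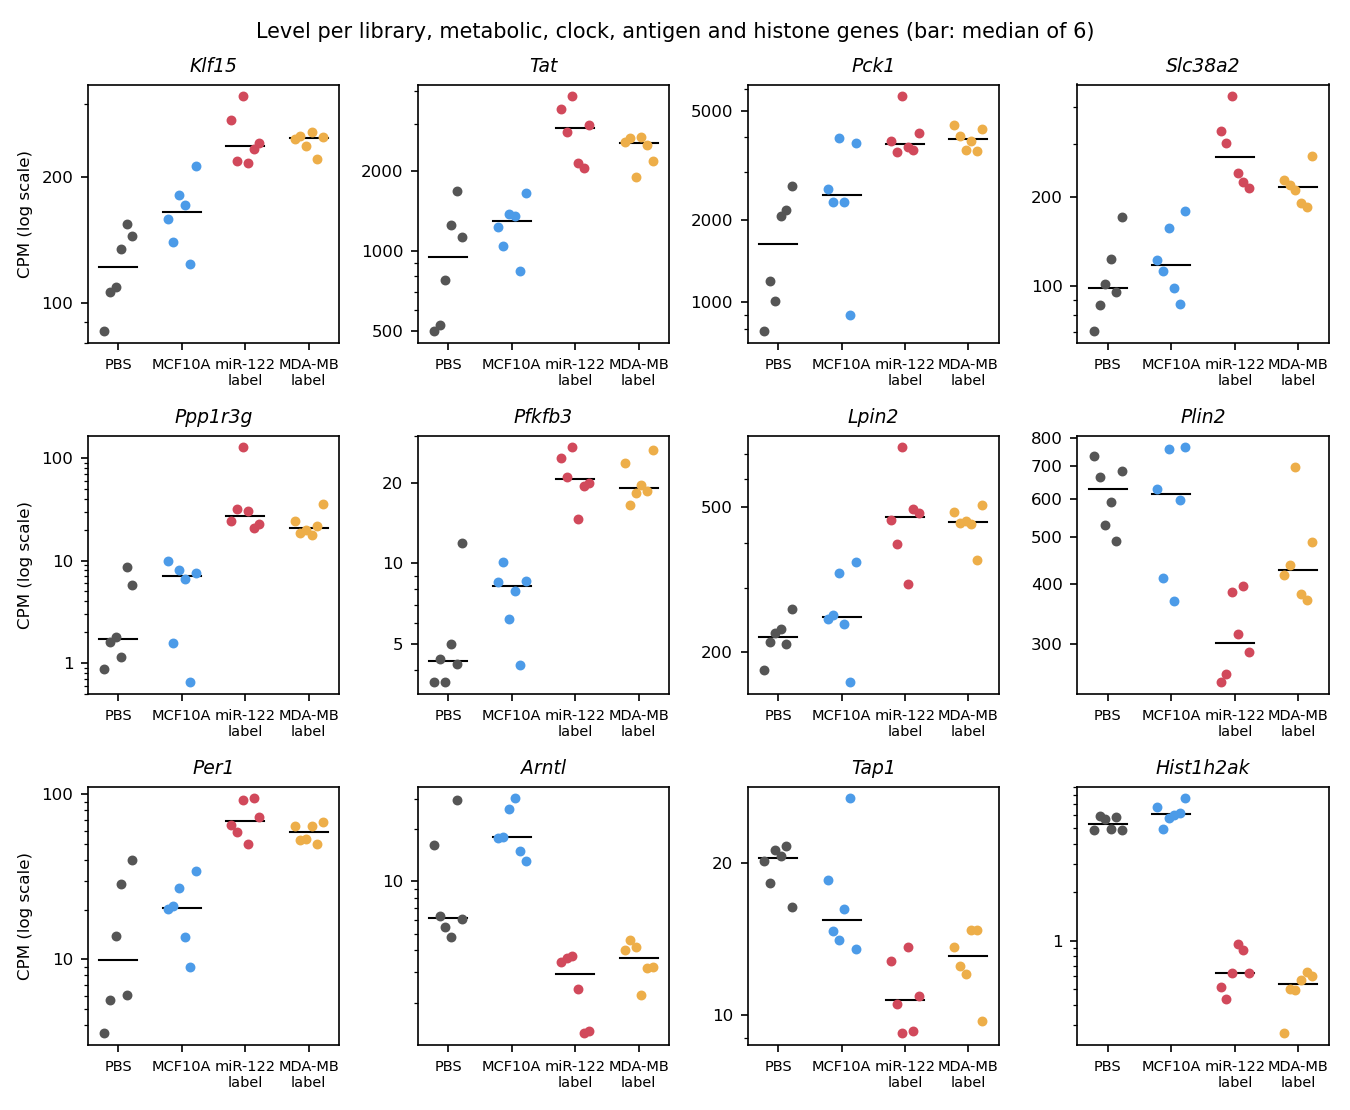
Level per library (CPM, log scale) of 12 metabolic, clock, antigen processing and histone genes in the 4 groups, with group medians as bars. Treated libraries (red) do not overlap PBS in any panel, and labelled MDA-MB-231 EV libraries (orange) overlap PBS for Plin2 alone among these 12.

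Many interferon-stimulated genes fell. Of 45 tested 16 fell (35.6%, against 9.53% of all genes) and 1 rose, and 35 had a negative log2 fold change (median -0.30). For the labelled MDA-MB-231 EV group, 7 fell and 1 rose over PBS (median -0.22), where 873 of all 13773 genes fell and 734 rose. Tap1, the peptide transporter of class I antigen presentation, was at 16.4, 20.5 and 21.7 CPM with PBS and 9.195, 10.7 and 13.6 CPM in the treated group (log2 fold change -0.84, SE 0.14, adjusted p = 0.000292). Dtx3l, a ubiquitin ligase gene of the interferon response, was at 55.7, 66.7 and 77.7 CPM with PBS and 41.7, 46.1 and 50.3 CPM in the treated group (log2 fold change -0.53, SE 0.08, adjusted p = 8.84e-05). Cxcl10, an interferon-induced chemokine gene, was at 2.94, 3.94 and 6.22 CPM with PBS and 1.396, 1.66 and 2.13 CPM in the treated group (log2 fold change -1.31, SE 0.28, adjusted p = 0.00259). None of these overlapped between the groups. Irgm1, an immunity-related GTPase gene, was at 55.6, 68.97 and 74.4 CPM with PBS and 37.4, 46.7 and 52.9 CPM in the treated group (log2 fold change -0.52, SE 0.11, adjusted p = 0.00258). Irf1, a transcription factor gene of the interferon response, was at 26.1, 38.8 and 41.8 CPM with PBS and 14.6, 23.5 and 29.2 CPM in the treated group (log2 fold change -0.64, SE 0.15, adjusted p = 0.00359). Rsad2, which encodes the antiviral enzyme viperin, was at 6.05, 14.9 and 26.4 CPM with PBS and 4.26, 5.995 and 9.41 CPM in the treated group (log2 fold change -1.21, SE 0.29, adjusted p = 0.00578). Zbp1, a sensor of viral nucleic acid, was at 5.12, 12.1 and 19.2 CPM with PBS and 3.58, 5.66 and 8.28 CPM in the treated group (log2 fold change -1.02, SE 0.25, adjusted p = 0.0067). Irf1, Rsad2 and Zbp1 overlapped between the groups and Irgm1 did not. In the labelled MDA-MB-231 EV group the log2 fold changes over PBS were -0.61 for Tap1, -0.33 for Dtx3l and -0.47 for Cxcl10, which did not pass there. Cxcl10 was at 0.898, 1.89 and 3.31 CPM with MCF10A EV, overlapping the treated group. Gbp1, an interferon-inducible gene outside the 45, rose in the treated group over PBS (log2 fold change 0.95, adjusted p = 0.00221). Isg15, a multi-copy gene of an interferon-induced ubiquitin-like protein, did not pass in the treated group (log2 fold change -0.56, adjusted p = 0.12). Class I and II antigen presentation did not follow as a whole: of 23 genes 2 rose and 2 fell (median 0.04). These shares (8.7% each) were near those of all genes. Ctss, a macrophage protease gene of class II processing, was at 15.6, 18.002 and 19.4 CPM with PBS and 20.9, 24.9 and 37.9 CPM in the treated group (log2 fold change 0.55, SE 0.13, adjusted p = 0.00594).

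Serpin and histone genes lay among those that separate the library sets. Serpina3a, which encodes a secreted inhibitor of serine proteases, was at 109.6, 143 and 298 CPM with PBS and 0.285, 0.624 and 4.92 CPM in the treated group, and at 0.466, 2.5999 and 5.85 CPM and 128, 170.4 and 325 CPM in the labelled MDA-MB-231 EV and MCF10A EV groups. Of 11 genes of the Serpina3 cluster 5 fell (45.5%, against 9.53% of all genes) and none rose (median -0.73). But Serpina3n, the acute phase member and multi-copy, did not pass, at 595, 737 and 787 CPM with PBS and 608, 727 and 785 CPM in the treated group (log2 fold change 0.02, adjusted p = 0.914). Of 22 histone genes 12 fell (54.5%) and none rose (median -0.53). The multi-copy gene Hist1h2ak was at 4.83, 5.32 and 5.95 CPM with PBS and 0.433, 0.632 and 0.958 CPM in the treated group (log2 fold change -2.995, SE 0.17, adjusted p = 8.05e-12), and at 0.267, 0.539 and 0.636 CPM in the labelled MDA-MB-231 EV group. Hist1h1c, a linker histone gene with a polyadenylated RNA and multi-copy, was at 18.7, 27.3 and 46.7 CPM with PBS and 11.7, 13.9 and 19.4 CPM in the treated group (log2 fold change -0.95, SE 0.22, adjusted p = 0.0036). Most histone RNAs lack a poly(A) tail, and the libraries were made with an mRNA kit. The part of library preparation in these values was not tested. Acta1, the skeletal muscle actin gene, was at 3.56, 3.98 and 4.92 CPM with PBS and 1.03, 1.54 and 1.91 CPM in the treated group (log2 fold change -1.40, SE 0.15, adjusted p = 5.97e-07), and at 1.06, 1.41 and 1.799 CPM and 3.103, 4.47 and 5.17 CPM in the labelled MDA-MB-231 EV and MCF10A EV groups.

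Of 31 reported miR-122 targets tested 3 rose (9.68%), 5 fell (16.1%) and 23 did not pass, where 8.35% of all genes rose and 9.53% fell. The median log2 fold change of the 31 was -0.01 against 0.00 over all genes. Over the same PBS libraries 2 rose and 5 fell in the labelled MDA-MB-231 EV group, where 734 of all 13773 genes rose and 873 fell. Hfe2, the gene of the iron regulator hemojuvelin, was at 46.4, 64.1 and 79.6 CPM with PBS and 19.2, 28.97 and 48.7 CPM in the treated group (log2 fold change -1.06, SE 0.20, adjusted p = 0.000694). Smarcd1, which encodes a chromatin remodelling subunit, was at 4.497, 5.67 and 7.62 CPM with PBS and 3.38, 3.68 and 4.32 CPM in the treated group (log2 fold change -0.61, SE 0.13, adjusted p = 0.00177). Gys1, the muscle-type glycogen synthase gene, was at 2.46, 2.98 and 3.27 CPM with PBS and 1.93, 2.23 and 2.67 CPM in the treated group (log2 fold change -0.39, SE 0.12, adjusted p = 0.0245). Gys1 did not pass in a fit of the 12 compared libraries alone (adjusted p = 0.0507). P4ha1, a collagen prolyl hydroxylase gene, moved the other way, at 8.14, 9.999 and 20.9 CPM with PBS and 12.8, 20.9 and 49.3 CPM in the treated group (log2 fold change 1.14, SE 0.27, adjusted p = 0.00471). Medians with MCF10A EV were 52.9 CPM of Hfe2, 5.86 of Smarcd1 and 2.74 of Gys1, nearer to PBS than to the treated group. For P4ha1 the MCF10A EV median was 20.6 CPM, near the treated one. For the labelled MDA-MB-231 EV group, which the library names call miR-122, the log2 fold changes over PBS were -1.01 for Hfe2, -0.56 for Smarcd1, -0.65 for Gys1 and 1.47 for P4ha1. Between the EV groups none of the 31 passed (median -0.04).

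Of 32 genes of the unfolded protein and integrated stress responses 4 rose (12.5%) and 2 fell (6.25%), near the 8.35% and 9.53% of all genes (median -0.03). The members named here are single genes and not a result about the pathway. Herpud1, of protein degradation at the endoplasmic reticulum, was at 193, 248 and 279 CPM with PBS and 494, 563 and 647 CPM in the treated group (log2 fold change 1.22, SE 0.15, adjusted p = 7.34e-06), without overlap. Ddit4, an inhibitor gene of mTORC1 that glucocorticoids and stress raise, was at 2.47, 3.74 and 6.92 CPM with PBS and 6.59, 13.2 and 47.8 CPM in the treated group (log2 fold change 2.13, SE 0.40, adjusted p = 0.000703), with overlap. Herpud1 also rose over PBS in the labelled MDA-MB-231 EV group (log2 fold change 1.11), where Ddit4 did not pass (1.16). Of 22 heat shock chaperone genes 5 rose (22.7%) and 1 fell (4.55%). The HSP40 gene Dnajb4 was at 21.8, 24.2 and 37.7 CPM with PBS and 34.9, 45.4 and 55.7 CPM in the treated group (log2 fold change 0.76, SE 0.13, adjusted p = 0.000371). Hspa4l, an HSP110 family gene, was at 14.7, 20.6 and 28.5 CPM with PBS and 10.6, 12.7 and 18.9 CPM in the treated group (log2 fold change -0.63, SE 0.18, adjusted p = 0.0143). Without PBS replicate 1 or 2 or treated replicate 5 or 6, 3 of these chaperone genes rose. Dnajb4 also rose over PBS in the labelled MDA-MB-231 EV group (log2 fold change 0.87), where Hspa4l did not pass (-0.31). Of 31 proteasome subunit genes 4 fell (12.9%, near the share of all genes) and none rose, among the 4 the multi-copy gene Psma3 (log2 fold change -0.34, adjusted p = 0.000635). Of 39 complement and coagulation genes 7 rose (17.9%) and none fell, and 34 had a positive log2 fold change (median 0.14). Without PBS replicate 1 or 4 or treated replicate 6, 2 of these genes rose, without treated replicate 3, 3, and without PBS replicate 5 or 6, 4. Of 72 oxidative phosphorylation subunit genes 1 rose (1.39%), and 64 had a positive log2 fold change (median 0.14).

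**Figure D5:**
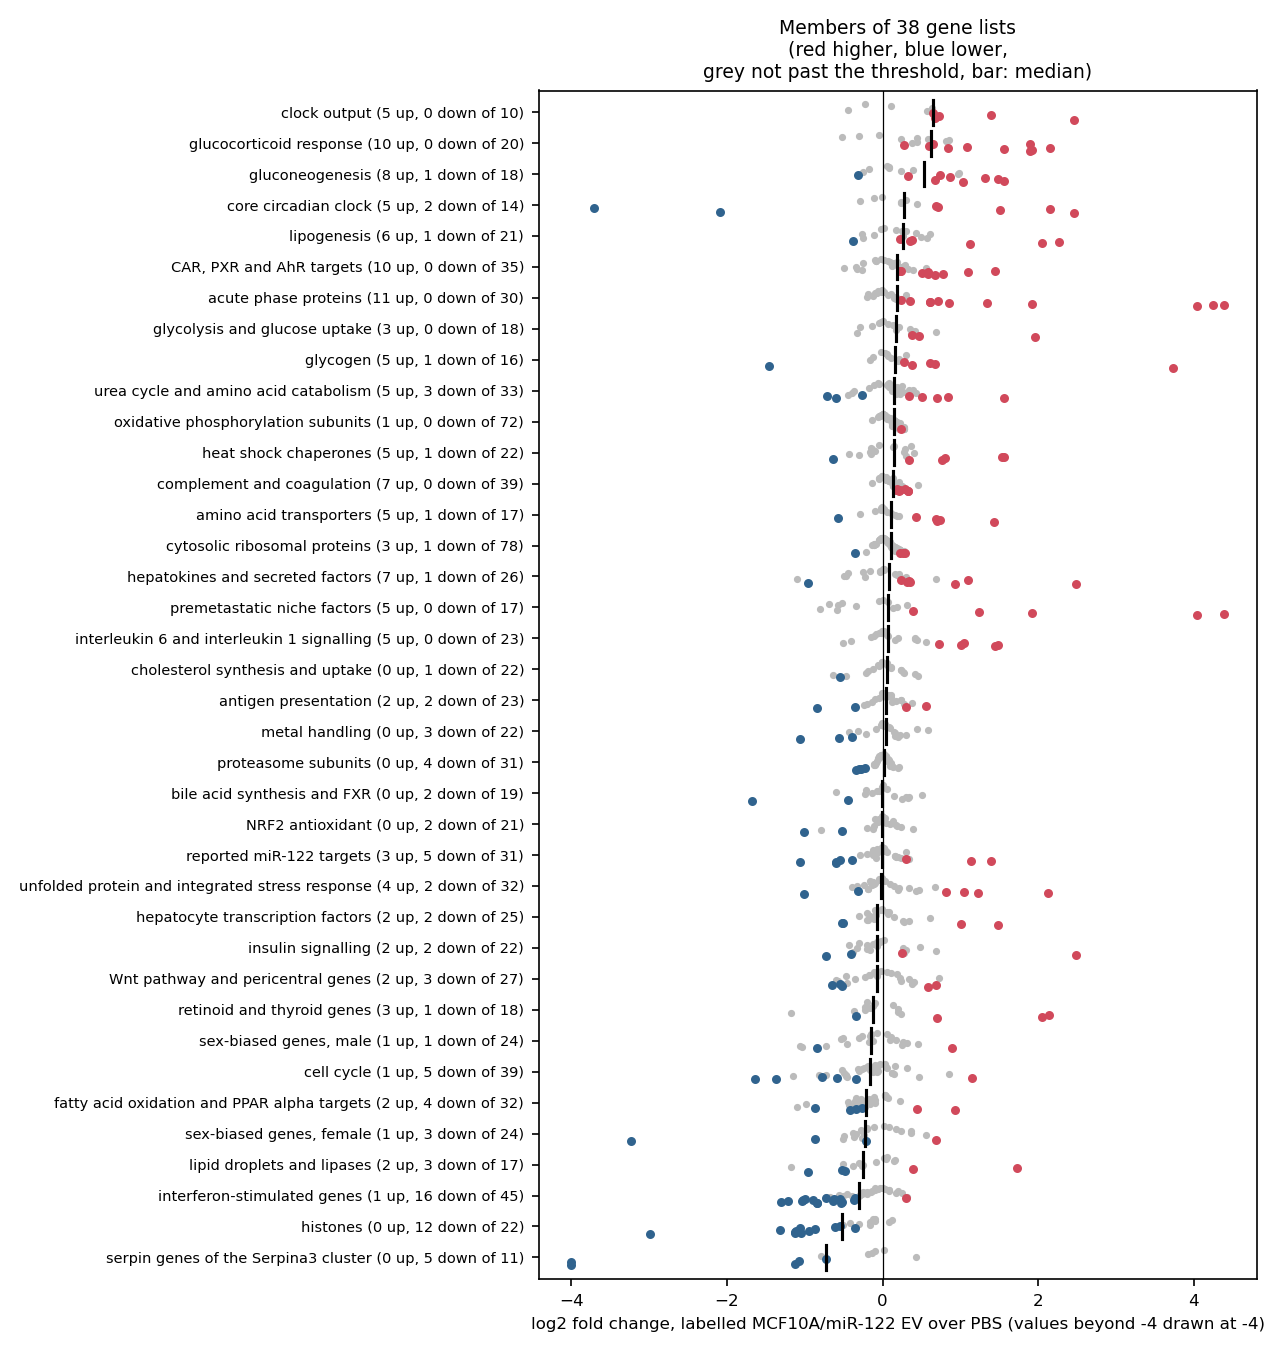
Log2 fold change of the treated group over PBS for the tested members of 38 gene lists, with the count past the threshold in each direction beside the name and the median as a bar. Clock output, glucocorticoid response and gluconeogenesis stand at the top, and interferon-stimulated genes, histones and the Serpina3 cluster at the bottom.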

How the data were processed

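Per the labels' protocols, TRIzol was used to isolate total RNA and a stranded mRNA-seq kit to prepare it for sequencing. Reads were handled with bcl2fastq 2.18.0.12 and TopHat2 against mm9, per the submitters' processing notes. How reads were counted (tool, annotation, strand) is not stated: not given in the sources used here. The deposited table holds the authors' raw counts per gene symbol for 24 libraries. Here 27 rows that share 11 symbols (0.0744% of counts) were left out.

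Genes were filtered with filterByExpr and tested with edgeR 4.0.16 (R 4.3.3): TMM scaling, quasi-likelihood F test, 1 fit of all 24 libraries with group means, Benjamini-Hochberg adjustment over 13773 genes, threshold 0.05. Groups were taken from the treatment labels. Alternatives were RLE scaling, DESeq2 1.42.0, limma-voom (limma 3.58.1), other low-count filters, fewer libraries, a replicate block, identities from the library names and each library left out. Changes of list counts without a library are given where they exceed 1.5 times. Tested on simulated counts (13662 genes), it called 41 of 67 true 1.5-fold changes, 55 of 66 at 2-fold and 66 of 66 at 4-fold, with 6 false calls of 168.

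Named genes were chosen from a rule: the 12 largest rises and 12 largest falls over PBS at a mean log2 CPM of 1 or more, up to 5 members of each list with the smallest p, and every gene past the threshold against the labelled MDA-MB-231 EV group. Other list members are named with their values. Some genes that the rule names are not reported here. The comparison, its lists and the genes printed were chosen with results of these data known. Libraries of a group differed by more than sampling noise (chi-square per degree of freedom at least 18.7). Of 119 genes named, 17 are multi-copy (at least 10% of 32-base stretches shared with another gene in GENCODE M21) and 31 overlap an exon of a gene on the other strand. Promoters are the 250 bases before RefSeq start sites.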

Additional observations from a re-analysis of the deposited data

Results flagged for a closer look

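In 28 of 238 groups of 6 libraries of a named gene, the highest or lowest library lay far from the other 5 (its gap to the nearest, as a share of the group's range, passed Dixon's 95% critical value). For normally distributed values chance would do so in about 1 in 20 groups. The rule was applied to CPM without a log, so that rate may not hold here. The genes are not independent, since the same libraries serve all of them. Treated replicate 1 stood apart as the highest library with 290.2 CPM of Saa4 (next 244). Treated replicate 2 stood apart as the highest library with 47.8 CPM of Ddit4 (next 15.5). Treated replicate 3 stood apart as the highest library with 261 CPM of Abcg5 (next 193), 258 CPM of Abcg8 (next 163), 37.9 CPM of Ctss (next 26.4), 15.9 CPM of Il18bp (next 11.7), 50.8 CPM of Marco (next 27.4), 5646 CPM of Pck1 (next 4143), 128 CPM of Ppp1r3g (next 31.9) and 42.1 CPM of Vsig4 (next 28.6). Treated replicate 6 stood apart as the highest library with 4.92 CPM of Serpina3a (next 1.44). PBS replicate 3 stood apart as the highest library with 3921 CPM of Hpx (next 2782), 49.9 CPM of Saa1 (next 28.3), 44.8 CPM of Saa2 (next 21.2), 5.74 CPM of Saa3 (next 3.99) and 111 CPM of Stat3 (next 97.7). PBS replicate 4 stood apart as the highest library with 17.7 CPM of Usp2 (next 8.31). PBS replicate 5 stood apart as the highest library with 43.5 CPM of Foxo1 (next 29.1), 12.4 CPM of Npas2 (next 2.45), 20.9 CPM of P4ha1 (next 11.5), 12.2 CPM of Ppargc1a (next 8.62) and 156 CPM of Ppp1r3c (next 62.2). PBS replicate 6 stood apart as the highest library with 615 CPM of Alas1 (next 207), 281 CPM of Lpin1 (next 129.7), 11.9 CPM of Pfkfb3 (next 5.00), 15.3 CPM of Plin4 (next 6.88) and 298 CPM of Serpina3a (next 149). PBS replicate 5 was the lowest library, with 234 CPM of Cpt1a (next 409). Of the 28, 8 belonged to treated replicate 3, 6 to PBS replicate 5 and 5 each to PBS replicates 3 and 6. In PBS replicate 3 they were all 3 of Saa1, Saa2 and Saa3 among others, and in treated replicate 3 the macrophage genes Marco, Vsig4 and Ctss and both sterol transporter genes Abcg5 and Abcg8.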

How the results depend on the processing

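Against PBS, 2463 genes passed, and 1821 to 2613 did with each of the 12 libraries left out in turn, of which 1476 passed every time. Counts were 2472 with RLE scaling (1193 higher, 1279 lower), 2784 in DESeq2, 2411 in limma-voom, 2215 with no filter, 2387 with a strict filter (at least 10 counts in 18 libraries), 1665 in a fit of the 12 libraries compared, and 1607 with identities from the library names (734 higher, 873 lower). With replicate number as a replicate block 2499 passed, and 35 did against the labelled MDA-MB-231 EV group. Deviations of same-numbered treated and PBS libraries correlated at -0.02 to 0.26. Libraries with different numbers were not compared, so whether the numbers pair the libraries was not tested. The block made Cpt1a (log2 fold change -0.36) and Fasn (0.58) pass over PBS, ended the call of Cd79b (0.77) and changed no other call of a named gene there. Of the 35 calls against the labelled MDA-MB-231 EV group 29 were shared with the block, and Atp1b1 (adjusted p = 0.0564), Vsig4 (0.057) and Emr1 (0.0883) lost theirs.

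Against the labelled MDA-MB-231 EV group the 35 became 98 in DESeq2 and 23 in a fit of the 12 libraries compared, 15 of them shared with the 35. Of the named genes Gp49a, Vsig4, Orm2, Emr1, Cyp8b1 and Fermt2 did not pass in that fit. The count was 13 to 83 with 1 library left out. With identities from the library names the same 35 genes have the opposite direction, 6 higher and 29 lower. The cause of these moves was not tested, other than fewer libraries in the smaller fits.

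With those identities the PBS comparison concerns the libraries labelled MDA-MB-231 EV. Of 119 named genes 37 then kept their direction but no longer passed, and 10 turned: Cxcl13 to -0.63, Cyp2b10 to -0.40, Emr1 to -0.59, Fga to 0.010, Gbp1 to -0.28, Gp49a to 0.17, Klrk1 to -0.59, Marco to -0.070, Saa3 to -0.0014 and Vsig4 to -0.035. None of the 10 passed with those identities, so Cxcl13, Gbp1, Gp49a, Marco, Saa3 and Vsig4 lost their calls too. With 1 library left out 2 genes that did not pass turned in some fits, Serpina3n (range -0.032 to 0.062) and Cyp7a1 (range -0.51 to 0.043). RLE scaling changed no call of a named gene, and no list count by more than 1. In the simulated counts 41 of 67 changes of 1.5-fold were called. Far fewer genes were changed there than the 2463 called here, and the adjustment for multiple testing is stricter where fewer genes change. That share therefore does not give the power of this comparison.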

Other observations

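Of 26 genes of hepatokines and other secreted factors, proteins by which the liver acts on other organs, 7 rose over PBS (26.9%) and 1 fell (3.85%). Their median log2 fold change was 0.09, and 8.35% of all genes rose and 9.53% fell. Igfbp1, which encodes an insulin-like growth factor binding protein that fasting raises, was at 19.9995, 33.1 and 78.7 CPM with PBS and 19.4, 107 and 724 CPM in the treated group (log2 fold change 2.48, SE 0.65, adjusted p = 0.00997), and its call ended without treated replicate 3 (log2 fold change 1.60) and in limma-voom (adjusted p = 0.0795). Inhbe, the gene of activin E, fell, at 28.6, 63.01 and 81.5 CPM with PBS and 11.2, 31.2 and 43.3 CPM in the treated group (log2 fold change -0.96, SE 0.26, adjusted p = 0.0108). Without treated replicate 3, 2 of the 26 genes rose, and 4 rose without PBS replicate 1, 3, 4 or 5 or without treated replicate 5 or 6.

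Of 39 cell cycle genes 1 rose (2.56%) and 5 fell (12.8%), with a median of -0.17. Of 27 genes of the Wnt pathway and pericentral zone 2 rose (7.41%) and 3 fell (11.1%). Of 25 hepatocyte transcription factors 2 rose and 2 fell (8% each). The shares over all genes were 8.35% and 9.53%, and the members named here are single genes. Gadd45a, a growth arrest gene, was at 2.27, 8.17 and 14.3 CPM with PBS and 1.59, 2.64 and 5.96 CPM in the treated group (log2 fold change -1.36, SE 0.35, adjusted p = 0.00844). With MCF10A EV it was at 1.23, 3.06 and 3.69 CPM, within or below the treated range. Fzd7, a Wnt receptor gene, was at 19.996, 22.4 and 24.1 CPM with PBS and 12.3, 15.3 and 19.3 CPM in the treated group (log2 fold change -0.52, SE 0.11, adjusted p = 0.00171), without overlap. Dhrs3, which encodes a retinal reductase, was at 172, 199 and 211 CPM with PBS and 126, 149.7 and 193 CPM in the treated group (log2 fold change -0.34, SE 0.08, adjusted p = 0.00612). Without PBS replicate 3, 2 cell cycle genes fell, and 3 fell without PBS replicate 1 or treated replicate 5 or 6. Of the Wnt and pericentral genes 1 fell without PBS replicate 1 or 2 or treated replicate 1 or 5.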
